A study of Saccharomyces cerevisiae with 12 samples.

Results

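The genes described here encode the subunits of SAGA and NuA4, a pair of histone acetyltransferase complexes that share the pseudokinase Tra1. The members are 31 of the 6691 genes in the count table, chosen by name from the known composition of the complexes: 19 SAGA genes, *TRA1* among them, and 12 further NuA4 genes. All 31 had enough counts to be tested in every comparison. The study asked how a loss of Tra1 function changes the transcriptome of *S. cerevisiae* before and after chronological aging. Counts from RNA sequencing were available for 12 libraries, 3 for each genotype on each day. The libraries of *tra1Q3* cells at day 3 carry the replicate numbers 2, 3 and 4. The study calls them biological replicates without saying how separate the cultures were, so the p-values measure the spread between these libraries.

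Both strains were derivatives of W303A, of mating type MATa, with the alleles ade2-1 and can1-100 together with trp1-1, leu2-3, his3-11 and ura3-1. According to the study's methods, each carried a FLAG-tagged *TRA1* allele that had been integrated together with the markers URA3 and HIS3, wild type in one strain and *tra1Q3* in the other, and the plasmid YCplac111-DED1pr-YHR100. The *tra1Q3* allele replaces 3 arginines of the Tra1 kinase-like domain with glutamine. By this account the strains differed in this allele, and each genotype is a single strain. The study's strain list, however, gives both W303A derivatives the same *TRA1* genotype and names no *tra1Q3* allele among them. The difference between the strains is therefore taken from the methods. By the methods, saturated cultures were diluted into medium without leucine, grown again and sampled as day 0, and the aged cells were taken at day 3. The sample labels instead name mid-log growth and synthetic complete medium, with the time given as Day-0 or Day-3.

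SAGA acetylates histones through Gcn5 and removes ubiquitin from histone H2B through Ubp8, and it delivers the TATA-binding protein to promoters. NuA4 acetylates histone H4 and the variant H2A.Z through Esa1, the only essential acetyltransferase of the complexes. In each complex Tra1 is the surface that transcriptional activators contact, and the other subunits fall into modules with separate roles. Several subunits serve more than one complex, so that the mRNA of a shared subunit is not the mRNA of SAGA or NuA4 alone.

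The libraries held between 20662125 and 28079682 counts, and the lowest value of any member in any library was 222 normalized counts (*HFI1*, aged *tra1Q3* cells). Replicate 2 of aged *TRA1* cells stood apart from the other libraries of its group: the median chi-square ratio, where 1 is counting error alone, was 76.7 and 80.1 in its pairs against 10.2 between replicates 1 and 3, and 2.84 to 4.45 within the other groups. Where leaving it out changed the call of a named member, the value without it is given. A set of 5 transcripts was picked for a rise of at least 500-fold with age in *TRA1* cells. In replicates 2 and 3 of *tra1Q3* cells at day 0, they lay at a median of 1.04% and 0.928% of their aged level in *TRA1* cells. Replicate 1 of *tra1Q3* cells held 0.086%. The *TRA1* libraries at day 0 held 0.112% to 0.209%, but the choice of transcripts keeps these low. The same share of the level of a member in aged *TRA1* cells came to at most 3.11% and 2.56% of its own level in replicates 2 and 3 of *tra1Q3* cells. Levels of aged *tra1Q3* cells, which are higher for some members, were not used for these limits. Markers of the labelled MATa cell type were present in all libraries and none of the 6 was at 0, with summed levels of 27641 to 29506 normalized counts in *TRA1* and 62307 to 65456 in *tra1Q3* cells at day 0, and 7388 to 8471 and 30356 to 37756 at day 3. The 4 markers of the other mating type, MATalpha, summed to 1159 to 1205 and 19637 to 21637 at day 0 and to 2688 to 3138 and 10949 to 13388 at day 3. All 10 markers were called higher in *tra1Q3* cells at day 0, and 6 of 6 MATa and 3 of 4 MATalpha markers at day 3. Their part in the results on the subunits was not tested. In bulk RNA, fewer cells of a type and less RNA per cell cannot be told apart.

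Normalized counts are scaled across all 12 libraries and given for the replicates in numerical order, whereas fold changes between the genotypes come from a fit of the 6 libraries of that day. At day 3, the ratio of the printed means lies lower than the fitted log2 fold change by about 0.10, and at day 0 the offset is below 0.01. A member was called changed at a Benjamini-Hochberg adjusted p of 0.05 or less in edgeR's quasi-likelihood test over all genes, and a change of more than 2-fold is a log2 value beyond 1 in either direction.

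Levels of different members were compared per kilobase of coding sequence. *ACT1*, which encodes actin and serves the whole cell besides NuA4, was the highest in every group. At day 0 the lowest member was *EAF5*, at 304 normalized counts per kilobase in *TRA1* and 287 in *tra1Q3* cells, and at day 3 the lowest was *HFI1*, at 373 and 171. The full coding length was used, although 518 of the 840 coding bases of *EAF5* are shared with another gene. Its level per kilobase may therefore be misstated and its rank is uncertain. *TRA1* itself took rank 13 of 31 in *TRA1* cells and rank 10 in *tra1Q3* cells at day 0. At day 3 the ranks were 20 and 6. *ADA2* and *YNG2* moved furthest in this order. *ADA2* went from rank 28 in *TRA1* and 22 in *tra1Q3* cells at day 0 to rank 11 in aged *tra1Q3* cells, while it lay at rank 29 in aged *TRA1* cells. *YNG2* was at rank 24 and 26 at day 0 and at rank 10 and 8 at day 3.

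The mean normalized counts of the members are given in the order *TRA1* day 0, *tra1Q3* day 0, *TRA1* day 3 and *tra1Q3* day 3 (n = 3 each), and are not divided by length. In the SAGA core, the structural subunit genes *SPT20* and *SPT7* had means of 1091, 1117, 1274 and 1509.6 and of 2290.1, 3051, 2414 and 2447. *SPT3* and *SPT8*, whose products contact the TATA-binding protein, had 1375, 1848, 1815 and 1723 and 1476, 1219, 1679 and 1968. Of the subunits shared with the general factor TFIID, *TAF5* and *TAF6* had 3935, 4294, 3431 and 3509 and 1956, 1674, 1725 and 1796. The means of these 6 genes stayed within 2-fold across the groups. The histone-fold genes *TAF9*, *TAF10*, *TAF12* and *HFI1* had means of 2437, 2972, 1914 and 2223, of 2290.5, 3486, 2776 and 2887, of 3925, 4163, 4022 and 3124 and of 1004, 1187, 548 and 250.5. *HFI1* was the only core gene with a more than 2-fold range. In the deubiquitinating module, the means were 638, 501, 682 and 354 for *SGF11*, 935, 908, 1061 and 530.3 for *UBP8*, 691, 704, 720.5 and 330.3 for *SUS1* and 1914, 2097, 3468 and 1919 for *SGF73*. In the acetyltransferase module, they were 1609, 1657, 1510.4 and 1016 for *GCN5*, 806, 1148, 532 and 3143 for *ADA2*, 2049, 1721, 3292 and 2099 for *NGG1* and 1218, 1018, 999.5 and 1259 for *SGF29*. *GCN5* was at its lowest and *ADA2* at its highest in aged *tra1Q3* cells.

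Among NuA4 genes, the catalytic *ESA1* and its Piccolo partners *EPL1*, *YNG2* and *EAF6* had means of 916, 1139, 2077 and 3682, of 1885, 3868, 2569 and 4456, of 639, 669, 1918 and 2946 and of 808, 896, 1609 and 867. The scaffold gene *EAF1* had 2446, 4776, 2458 and 1718. The TINTIN genes had 3801, 3958, 8364 and 5399.8 (*EAF3*), 256, 241, 329 and 419 (*EAF5*) and 1992, 2822, 5626 and 6173 (*EAF7*). Levels of *ESA1*, *YNG2*, *EAF3* and *EAF7* were higher at day 3 than at day 0 in both genotypes, whereas *EAF1* was lowest in aged *tra1Q3* cells. The genes shared with other remodelling complexes had 787, 836, 1043 and 812 (*YAF9*), 2797, 3171, 2168 and 5164 (*ARP4*), 56685, 68514, 15871 and 27073 (*ACT1*) and 1458, 1491, 1839 and 3274 (*SWC4*).

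*TRA1* (YHR099W) lies on chromosome VIII at 302761 to 313995 of the R64 build, on the plus strand, and its reading frame of 11235 bases encodes 3744 residues. The stretch of the reference gene that holds the altered codons is shown because it is the only designed difference between the strains. It covers codons 3383 to 3462 at chrVIII:312907-313146, plus strand, in the genome sequence of the R64 build. The capitals mark the arginine codons 3389, 3390 and 3456, counted from the start codon, as they stand in the wild-type reference.
*TRA1*, codons 3383 to 3462: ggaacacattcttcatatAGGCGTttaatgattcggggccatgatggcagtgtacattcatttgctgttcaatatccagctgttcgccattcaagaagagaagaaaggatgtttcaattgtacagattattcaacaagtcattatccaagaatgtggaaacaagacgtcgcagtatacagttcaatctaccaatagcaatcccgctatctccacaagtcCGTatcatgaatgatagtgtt

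*TRA1* mRNA was higher in *tra1Q3* cells on both days, by more at day 3 than at day 0. In *TRA1* cells at day 0, it was measured at 16436, 15955 and 15828 normalized counts, with a mean of 16073 ± 321 (SD, n = 3). In *tra1Q3* cells at day 0, the libraries held 24419.9, 22816 and 22612, with a mean of 23282 ± 990.3. All 3 *tra1Q3* libraries lay above all 3 *TRA1* libraries, and the fitted difference was 1.45-fold (log2 0.54 ± 0.044, SE, adjusted p = 4.57e-09). At day 3, the *TRA1* libraries held 13446, 14464 and 14435 and the *tra1Q3* libraries 44281, 44738 and 43081. The groups were again fully separate, with a difference of 3.35-fold (log2 1.74 ± 0.11, adjusted p = 1.29e-05) and of 1.75 on the log2 scale without replicate 2 of aged *TRA1* cells. In *tra1Q3* cells *TRA1* rose 1.9-fold from day 0 to day 3 (log2 0.93 ± 0.071, adjusted p = 1.06e-07). The corresponding value in *TRA1* cells was a small decrease (log2 -0.18 ± 0.070, adjusted p = 0.0298). That call was lost when library totals (log2 -0.006, adjusted p = 0.951) or upper quartile factors (log2 -0.094, adjusted p = 0.245) replaced the TMM factors. It was also lost without any 1 of the 3 *TRA1* libraries at day 0 or without replicate 1 of aged *TRA1* cells (adjusted p = 0.0578 to 0.0913). The next gene on chromosome VIII, on the other strand, is *GEP4* (YHR100C), the gene that the plasmid of both strains supplies. *GEP4* was measured at 4842 ± 15.3 and 2972 ± 96.3 normalized counts at day 0 and at 9144 ± 1398 and 30357 ± 500.2 at day 3, in *TRA1* and *tra1Q3* cells respectively. It was thus lower in *tra1Q3* cells at day 0 (log2 -0.70 ± 0.038, adjusted p = 1.56e-11) and higher at day 3 (log2 1.83 ± 0.14, adjusted p = 2.49e-05), so that *TRA1* and *GEP4* differed in opposite directions in young cells and in the same direction in aged cells. Whether the integrated markers and tag change the counts of *TRA1* was not tested.

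At day 0, the first comparison of the genotypes, 15 of the 31 members were higher in *tra1Q3* cells and 5 were lower, while 11 did not pass the test. Among all 6126 genes tested, 35% were higher and 33.7% lower. The members thus stood at 48.4% and 16.1% beside that background, and their median log2 value was 0.129 against 0.008 for all genes. Only *EPL1* was more than 2-fold higher and no member was more than 2-fold lower, where 3.31% and 2.76% of all genes were. The libraries of the genotypes did not overlap for 22 members, against 71.4% of all genes. With library totals, the calls of *TAF5* and *SGF73*, both small increases, were lost (adjusted p = 0.37 and 0.301), and that of *TAF5* was also lost without replicate 2 of *TRA1* cells (adjusted p = 0.0558). Without this library *TAF12* (log2 0.138, adjusted p = 0.00949) and *EAF6* (log2 0.206, adjusted p = 0.0392) passed as higher, and *EAF6* also did without replicate 1 of *tra1Q3* cells (adjusted p = 0.0117).

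The increases at day 0 included 6 of the 12 NuA4 genes outside SAGA, and none of these 12 was lower, against 35% higher and 33.7% lower among all genes. The largest was that of *EPL1* (YFL024C), which encodes the subunit that holds Esa1 and Yng2 together in the catalytic Piccolo module. It was measured at 1917, 1854 and 1882 normalized counts in *TRA1* and 3960.2, 3871 and 3774 in *tra1Q3* cells. All *tra1Q3* libraries lay far above all *TRA1* libraries, and the difference was 2.06-fold (log2 1.04 ± 0.038, adjusted p = 7.25e-14), or log2 0.96 with library totals. *EAF1* (YDR359C) encodes the scaffold on which NuA4 is assembled and which no other complex contains. Its counts were 2452, 2512 and 2374 in *TRA1* and 4966, 4743 and 4621 in *tra1Q3* cells. The libraries were fully separate and the gene was 1.96-fold higher in *tra1Q3* cells (log2 0.97 ± 0.040, adjusted p = 3.82e-13). Of its 2949 coding bases, 287 are shared with the dubious gene YDR360W on the other strand, and the counts do not use strand. *EAF7*, a member of the TINTIN module, rose from 1992 ± 32.4 to 2822 ± 236 normalized counts (log2 0.50 ± 0.050, adjusted p = 7.20e-08), and its libraries did not overlap. *ESA1* (log2 0.32 ± 0.058), *ACT1* (log2 0.28 ± 0.045) and *ARP4* (log2 0.18 ± 0.038) were higher by smaller amounts.

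Within SAGA, 8 of the 18 genes other than *TRA1* were higher in *tra1Q3* cells at day 0 and 5 were lower, against 35% and 33.7% of all genes. *TAF10*, which encodes a histone-fold subunit shared with the general factor TFIID, was measured at 2295, 2304 and 2272 in *TRA1* and 3515, 3537 and 3406 in *tra1Q3* cells. The groups were far apart relative to their spread, with a difference of 1.52-fold (log2 0.61 ± 0.037, adjusted p = 9.34e-11). *ADA2* encodes the adaptor that stimulates Gcn5 and stood at 816, 849 and 752 and 1146, 1179 and 1119. All *tra1Q3* libraries were again higher, by 1.43-fold (log2 0.51 ± 0.057, adjusted p = 3.17e-07). *SPT7* and *SPT3*, a core scaffold and a subunit that contacts the TATA-binding protein, were higher by 0.42 and 0.43 on the log2 scale, *TAF9* by 0.29 and *HFI1* by 0.25. The 5 lower genes were *SGF11* (log2 -0.35 ± 0.072), *SPT8* (log2 -0.27 ± 0.053), *SGF29* (log2 -0.25 ± 0.055), *NGG1* (log2 -0.25 ± 0.045) and *TAF6* (log2 -0.22 ± 0.048). They belong to the deubiquitinating module, the core and the acetyltransferase module, so that each of these modules held members that moved both ways.

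At day 3, the second comparison of the genotypes, 12 members were higher in *tra1Q3* cells and 11 were lower. Among the 6208 genes tested, 35.1% were higher and 36.4% lower, so the members, at 38.7% and 35.5%, lay near the background in number. *ADA2*, *TRA1* and *ARP4* were more than 2-fold higher and *HFI1* and *SUS1* more than 2-fold lower, beside 16.4% and 15.6% of all genes. The median log2 value of the members was 0.161 against -0.023 for all genes, and the libraries of 23 members did not overlap, against 77.1% of all genes. Scaling by library totals lowered the median of all genes by 0.291 on the log2 scale at day 3. Under it, the calls of *SPT20*, *TAF9*, *SGF29*, *YNG2* and *EAF5*, all higher, were lost, and 6 members passed 2-fold in the lower direction. Without replicate 2 of aged *TRA1* cells, *SPT7*, *SPT8*, *TAF5*, *TAF6*, *TAF10* and *EAF7* also passed as higher and *YAF9* as lower, *ESA1* (log2 1.02) and *EPL1* (log2 1.02) exceeded 2-fold, and *HFI1* (log2 -0.96) and *SUS1* (log2 -0.92) no longer did. The 2-fold line was also crossed by *HFI1* without replicate 4 (log2 -0.939) and *SUS1* without replicate 3 (log2 -0.999) of aged *tra1Q3* cells. In the other direction it was crossed by *UBP8* without replicate 1 (log2 -1.03) and *ACT1* without replicate 3 (log2 1.02) of aged *TRA1* cells. The plot of log2 fold changes by module sets both days side by side.

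**Figure D1:**
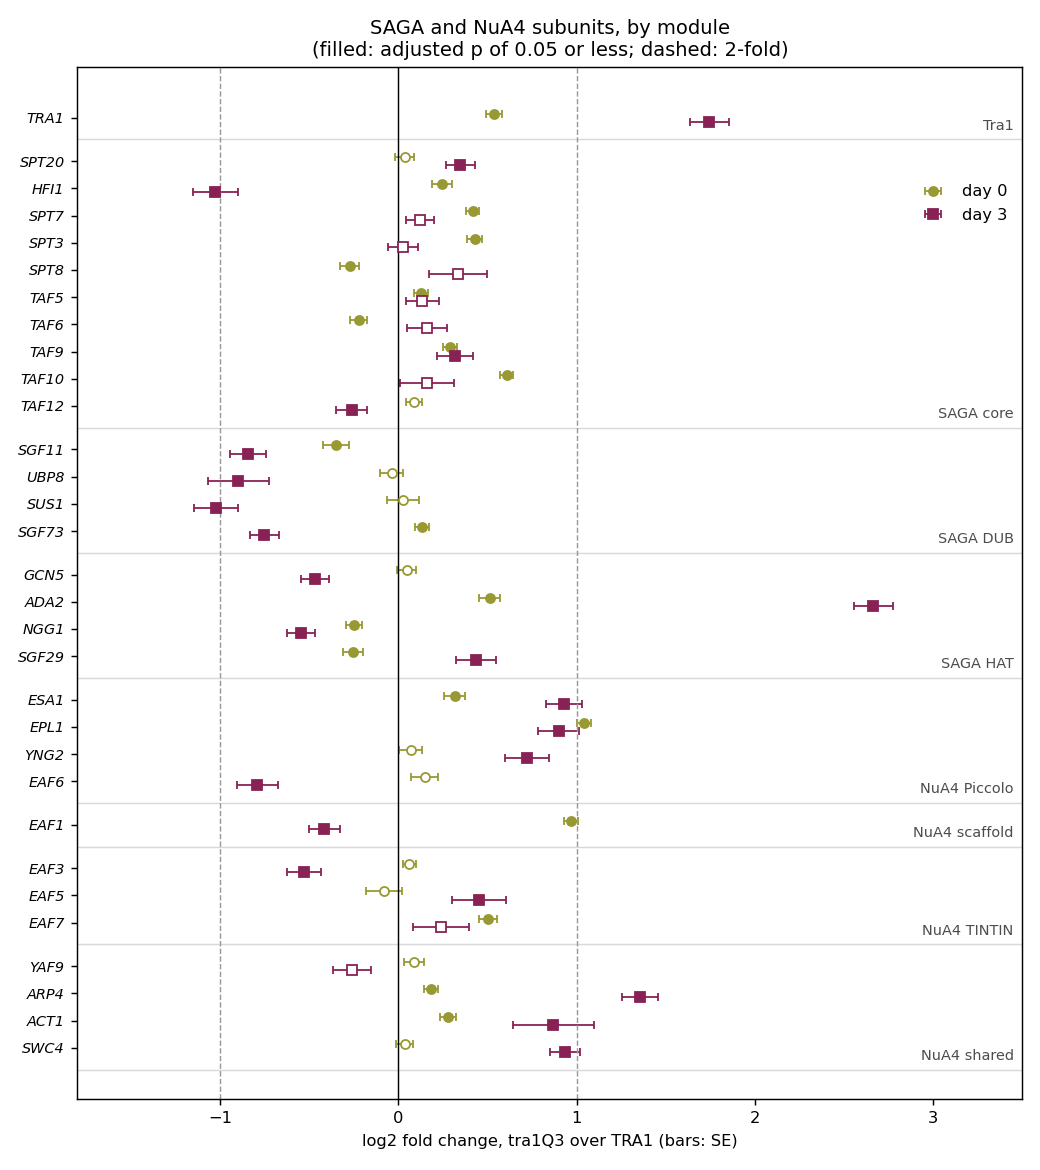
Log2 fold change of *tra1Q3* over *TRA1* cells for all 31 members at day 0 (circles) and day 3 (squares), grouped by module, with the standard error as bars. Filled symbols passed an adjusted p of 0.05 and the dashed lines mark 2-fold: the 4 genes of the deubiquitinating module (SAGA DUB) lie between -1.02 and -0.75 at day 3, and *ADA2* lies at 2.66.

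*ADA2* (YDR448W) showed the largest difference of any member at day 3. It was measured at 476, 595 and 526 normalized counts in aged *TRA1* cells, a mean of 532 ± 59.9. In aged *tra1Q3* cells it was measured at 3255, 2885 and 3290.0, a mean of 3143 ± 224. Each aged *tra1Q3* library exceeded each aged *TRA1* library, and the fitted difference was 6.34-fold (log2 2.66 ± 0.11, adjusted p = 3.34e-06). Of the other acetyltransferase module genes, 2 were lower and 1 was higher by a smaller amount. *GCN5*, the catalytic subunit, was lower in aged *tra1Q3* cells (1499, 1499 and 1534 against 1001, 994 and 1054), by 1.38-fold (log2 -0.47 ± 0.078, adjusted p = 0.00124). *NGG1*, also called *ADA3*, which bridges Gcn5 and Ada2 to the core, was lower by 1.46-fold (log2 -0.55 ± 0.077, adjusted p = 5.42e-04), with 3297, 3293 and 3287 counts in *TRA1* and 2003, 2212 and 2082 in *tra1Q3* cells. *SGF29*, whose product reads methylated histone H3, was higher by 1.35-fold (log2 0.44 ± 0.11, adjusted p = 0.0104), a call that was lost with library totals (log2 0.14, adjusted p = 0.394).

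All 4 genes of the deubiquitinating module were lower in aged *tra1Q3* cells, and the libraries of the genotypes did not overlap for any of them. Of all genes at day 3, 36.4% were lower and 77.1% had libraries that did not overlap. *UBP8* (YMR223W), the ubiquitin protease, was measured at 853, 1353 and 977 in aged *TRA1* and 554, 535 and 502 in aged *tra1Q3* cells. The highest *TRA1* value is that of replicate 2, and the difference was 1.86-fold (log2 -0.90 ± 0.17, adjusted p = 0.00237) and -0.69 on the log2 scale without this library. *SGF11* (YPL047W) encodes the small subunit that activates Ubp8. It was measured at 697, 701 and 648 and 358, 376 and 328, and was lower by 1.8-fold (log2 -0.84 ± 0.10, adjusted p = 2.29e-04). *SUS1* (YBR111W-A), which encodes a subunit shared with the mRNA export complex TREX-2 and has 3 coding segments, was measured at 699, 833 and 629 and 331, 321 and 339. The *tra1Q3* libraries spanned a narrow range well below the *TRA1* libraries, with a 2.03-fold difference (log2 -1.02 ± 0.12, adjusted p = 2.54e-04). *SGF73* (YGL066W), the yeast relative of ataxin-7, anchors the module to SAGA and was measured at 3312, 3717 and 3374 and 1898, 1966 and 1894. It was lower by 1.68-fold (log2 -0.75 ± 0.079, adjusted p = 1.20e-04). The 4 genes were called lower in each of the 14 other fits, with module medians from -1.18 with library totals to -0.77 without replicate 2 of aged *TRA1* cells. At day 0 the module had no common direction: *SGF11* was lower, *SGF73* was slightly higher, and *UBP8* (log2 -0.04 ± 0.065) and *SUS1* (log2 0.03 ± 0.090) did not pass.

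**Figure D2:**
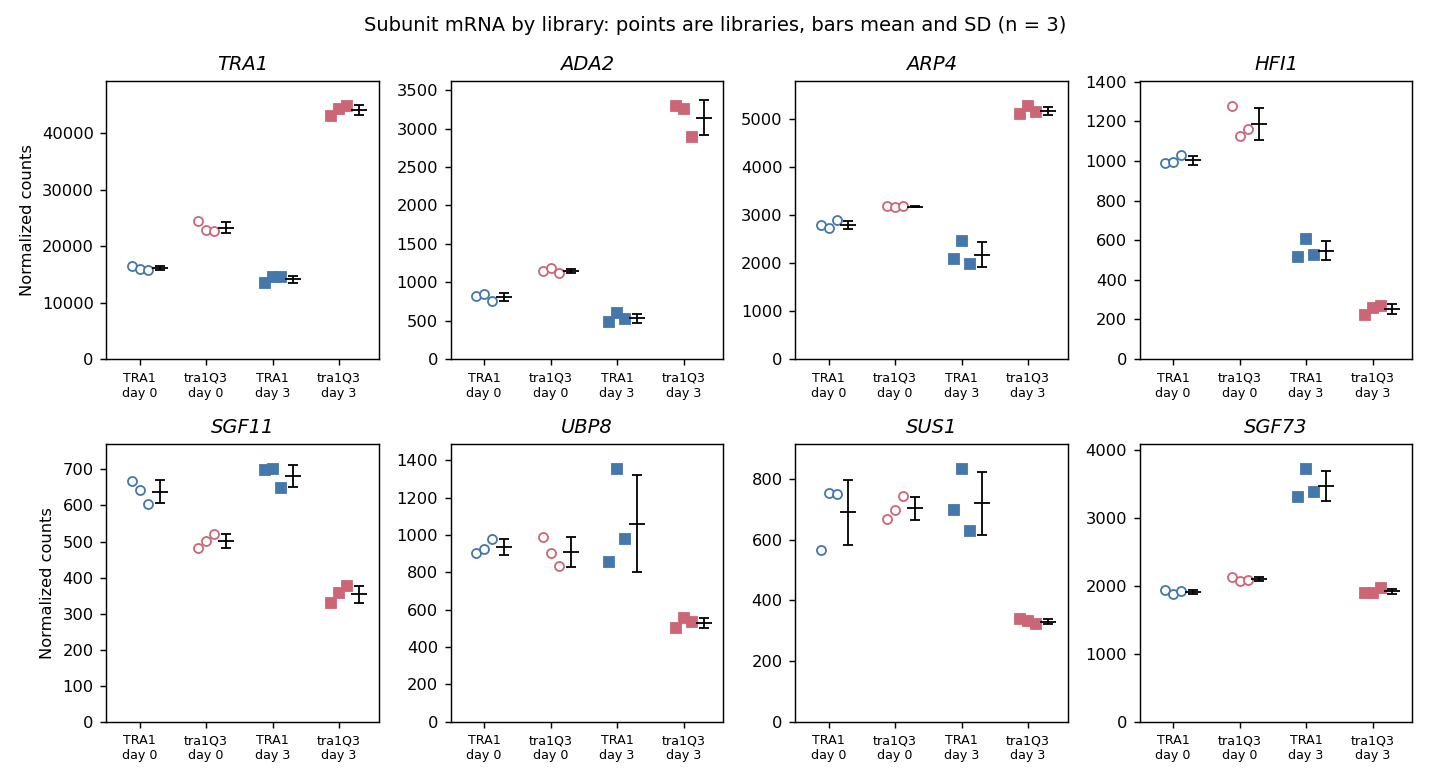
Normalized counts in each library (points, with the mean and SD at their right, n = 3) for *TRA1*, *ADA2*, *ARP4*, *HFI1* and the deubiquitinating module genes *SGF11*, *UBP8*, *SUS1* and *SGF73*; the vertical axes start at 0 and differ between genes. *ADA2* holds 2885 to 3290.0 counts in aged *tra1Q3* cells and 476 to 595 in aged *TRA1* cells, and the aged *tra1Q3* libraries are the lowest group for *HFI1*, *SGF11*, *UBP8* and *SUS1*.

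The promoters of the deubiquitinating module are shown because its genes were all lower at day 3, and those of *ADA2* and *HFI1* because these members had the largest difference at day 3 in each direction. Each window holds 250 bases before and 50 bases from the start codon on, read from the R64 genome. Capitals mark a TATA box (TATAAA) or the core of a heat shock element (GAANNTTC), searched on both strands together with the stress response element (AGGGG). No match overlapped another.
*SGF11*, chrXVI:465712-466011, plus strand: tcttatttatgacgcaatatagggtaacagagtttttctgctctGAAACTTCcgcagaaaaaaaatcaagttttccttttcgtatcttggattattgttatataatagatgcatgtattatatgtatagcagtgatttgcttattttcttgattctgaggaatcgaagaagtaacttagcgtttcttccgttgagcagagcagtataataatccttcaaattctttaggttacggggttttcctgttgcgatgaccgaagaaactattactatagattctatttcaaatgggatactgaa
*UBP8*, chrXIII:716465-716764, plus strand: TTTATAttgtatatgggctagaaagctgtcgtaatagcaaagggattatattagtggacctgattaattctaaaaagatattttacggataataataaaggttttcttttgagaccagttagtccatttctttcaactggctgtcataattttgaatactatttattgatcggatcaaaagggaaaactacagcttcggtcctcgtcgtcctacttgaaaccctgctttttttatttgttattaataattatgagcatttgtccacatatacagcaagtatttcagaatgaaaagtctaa
*SUS1*, chrII:461889-462188, plus strand: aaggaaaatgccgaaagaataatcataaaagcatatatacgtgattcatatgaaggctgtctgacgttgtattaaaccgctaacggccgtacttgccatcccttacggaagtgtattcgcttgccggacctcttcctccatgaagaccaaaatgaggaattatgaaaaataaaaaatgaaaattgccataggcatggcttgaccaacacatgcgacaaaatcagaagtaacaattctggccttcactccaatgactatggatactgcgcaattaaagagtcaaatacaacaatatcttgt
*SGF73*, chrVII:377359-377658, plus strand: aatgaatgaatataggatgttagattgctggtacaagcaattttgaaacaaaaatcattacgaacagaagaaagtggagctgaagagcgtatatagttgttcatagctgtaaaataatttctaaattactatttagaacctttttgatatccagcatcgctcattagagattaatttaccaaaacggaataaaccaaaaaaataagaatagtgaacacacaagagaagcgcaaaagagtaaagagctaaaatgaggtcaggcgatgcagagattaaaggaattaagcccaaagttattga
*ADA2*, chrIV:1355815-1356114, plus strand: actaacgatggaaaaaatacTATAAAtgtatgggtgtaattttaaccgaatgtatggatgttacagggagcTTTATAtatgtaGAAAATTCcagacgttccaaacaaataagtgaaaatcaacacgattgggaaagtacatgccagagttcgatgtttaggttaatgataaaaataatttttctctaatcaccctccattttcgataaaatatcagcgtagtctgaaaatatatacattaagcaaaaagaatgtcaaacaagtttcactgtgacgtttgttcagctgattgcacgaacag
*HFI1*, chrXVI:69235-69534, plus strand: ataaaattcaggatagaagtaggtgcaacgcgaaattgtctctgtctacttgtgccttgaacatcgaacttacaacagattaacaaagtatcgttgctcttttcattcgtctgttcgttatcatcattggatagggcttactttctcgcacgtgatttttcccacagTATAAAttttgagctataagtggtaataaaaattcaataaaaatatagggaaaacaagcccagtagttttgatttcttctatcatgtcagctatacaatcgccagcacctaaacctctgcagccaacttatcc

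The windows of the 4 deubiquitinating module genes shared none of these motifs. *SGF11* had a heat shock element core beginning 206 bases before the start codon, *UBP8* had a TATA box at 250 bases, and the windows of *SUS1* and *SGF73* had no match. *ADA2* had 2 TATA boxes, at 230 and 179 bases, and a heat shock element core at 167 bases before the start codon, and *HFI1* had a TATA box at 83 bases. Over all members, 12 of 31 windows (38.7%) held a TATA box, 3 (9.68%) a stress response element and 6 (19.4%) a heat shock element core. Over 5983 windows of the genome, cut in the same way, these shares were 45.2%, 21.6% and 11.8%. The heat shock element cores of *TAF12*, *NGG1* and *ARP4* lay within the coding sequence, beginning 15, 41 and 36 bases after the first base of the start codon. A match describes the letters of the window only.

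In the SAGA core, the largest difference at day 3 was that of *HFI1* (YPL254W, also *ADA1*), a histone-fold subunit needed for an intact complex. It was measured at 513, 604 and 526 in aged *TRA1* and 260.0, 269.6 and 222 in aged *tra1Q3* cells. All *tra1Q3* libraries lay below all *TRA1* libraries, by 2.04-fold (log2 -1.03 ± 0.12, adjusted p = 2.50e-04). *TAF12*, its histone-fold partner, was lower by 1.2-fold (log2 -0.26 ± 0.086, adjusted p = 0.028), and this call was lost without any 1 of the aged *tra1Q3* libraries (adjusted p = 0.0601 to 0.132). *SPT20*, a structural subunit, and *TAF9* were higher by 1.27-fold (adjusted p = 0.00694) and 1.25-fold (adjusted p = 0.0228). The call of *TAF9* was lost without replicate 3 of aged *TRA1* cells (adjusted p = 0.0673) or replicate 3 of aged *tra1Q3* cells (adjusted p = 0.086), and without replicate 4 of aged *tra1Q3* cells it lay just past the threshold (adjusted p = 0.05). The remaining 6 core genes did not pass, with log2 values from 0.03 for *SPT3* to 0.33 for *SPT8*. For *SPT8*, the aged *TRA1* libraries held 1389, 2157 and 1490.2 against 1979, 1893 and 2032 in aged *tra1Q3* cells, and for *TAF10* 2482, 3496 and 2349.5 against 2827, 2889.9 and 2943. In both, replicate 2 of aged *TRA1* cells alone lay above the *tra1Q3* libraries, and without it these genes were higher in *tra1Q3* cells (log2 0.55 and 0.35, adjusted p = 7.01e-06 and 0.000175).

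NuA4 genes outside SAGA were higher in aged *tra1Q3* cells in 7 of 12 cases and lower in 3, against 35.1% and 36.4% of all genes. The largest increase was that of *ARP4* (YJL081C), an actin-related protein that NuA4 shares with the remodellers SWR1 and INO80. It was measured at 2075, 2458 and 1971 in aged *TRA1* and 5258, 5143 and 5089.6 in aged *tra1Q3* cells. Every *tra1Q3* library held more than double the highest *TRA1* value, and the difference was 2.56-fold (log2 1.35 ± 0.10, adjusted p = 2.45e-05). *SWC4*, shared with SWR1, followed with 1752, 1996 and 1770.4 against 3108, 3353 and 3359. It was 1.91-fold higher (log2 0.93 ± 0.086, adjusted p = 6.53e-05). *ACT1* was higher as well (18096, 10518 and 18999 against 29483, 25008 and 26727; log2 0.87 ± 0.23, adjusted p = 0.0111), with replicate 2 of aged *TRA1* cells the lowest library. *YAF9*, which carries a histone-binding YEATS domain, did not pass (log2 -0.26 ± 0.10, adjusted p = 0.0563).

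The catalytic Piccolo module was divided at day 3. *ESA1* (YOR244W), the acetyltransferase, was measured at 1936, 2346 and 1949.6 in aged *TRA1* and 3461, 3831 and 3754 in aged *tra1Q3* cells, and the difference was 1.91-fold (log2 0.93 ± 0.10, adjusted p = 1.54e-04). *EPL1* was 1.86-fold higher (log2 0.90 ± 0.12, adjusted p = 3.68e-04) and *YNG2*, whose product carries a histone-binding PHD finger, 1.65-fold higher (log2 0.72 ± 0.12, adjusted p = 0.00134), though the call of *YNG2* was lost with library totals (adjusted p = 0.0673). *EAF6*, a subunit shared with the acetyltransferase complex NuA3, went the other way. It was measured at 1604, 1813 and 1410.1 and 882, 801 and 917, with all *tra1Q3* libraries lower by 1.73-fold (log2 -0.79 ± 0.11, adjusted p = 5.82e-04). *EAF1* was lower in aged *tra1Q3* cells (2239, 2693 and 2443 against 1687, 1742 and 1724), by 1.33-fold (log2 -0.41 ± 0.088, adjusted p = 0.00417), whereas it had been higher at day 0.

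In the TINTIN module, which also exists apart from NuA4, the 3 genes gave 3 different calls at day 3. *EAF3*, a chromodomain protein shared with the deacetylase complex Rpd3S, was lower by 1.44-fold (8402, 8907 and 7783 against 5088, 5754 and 5358; log2 -0.53 ± 0.096, adjusted p = 0.00194). *EAF5* was higher by 1.37-fold (log2 0.45 ± 0.15, adjusted p = 0.0295), but its libraries overlapped and the call was lost when any library other than replicate 2 of aged *TRA1* cells was left out (adjusted p = 0.0648 to 0.0927). Leaving out that replicate raised the value to log2 0.62 (adjusted p = 8.9e-05). Of the 840 coding bases of *EAF5*, 518 are shared with YEL018C-A on the other strand. *EAF7* did not pass (5039, 7147 and 4693 against 6252, 6134 and 6133; log2 0.24 ± 0.16), and without replicate 2 of aged *TRA1* cells it was higher (log2 0.44, adjusted p = 2.76e-05).

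**Figure D3:**
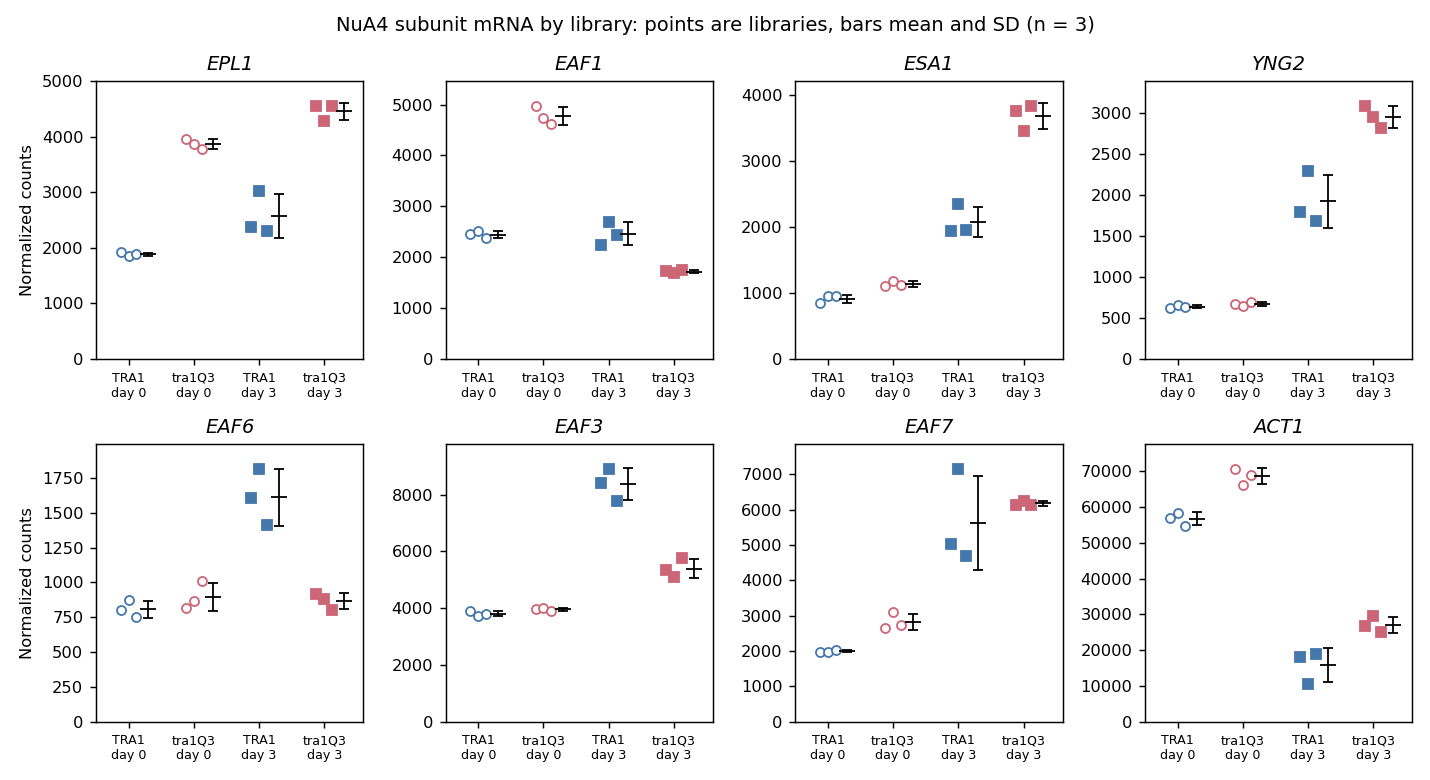
Normalized counts in each library (points, with the mean and SD at their right, n = 3) for the NuA4 genes *EPL1*, *EAF1*, *ESA1*, *YNG2*, *EAF6*, *EAF3*, *EAF7* and *ACT1*; the vertical axes start at 0 and differ between genes. *EAF1* holds 4621 to 4966 counts in *tra1Q3* cells at day 0 and 1687 to 1742 at day 3, while the *TRA1* libraries lie between 2239 and 2693 on both days.

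The change with age was then compared within each genotype, from 1 fit of all 12 libraries with a mean per group. Scaling sets each value relative to the other mRNAs of its library, so that rises and falls with age are not amounts per cell. In *TRA1* cells, 14 members rose from day 0 to day 3 and 8 fell (45.2% and 25.8% of the members, against 41.5% and 39.8% of 6247 genes). More than 2-fold changes were seen for 4 that rose and 1 that fell, beside 20.1% and 19.8% of all genes. The members' median was 0.185 and that of all genes 0.034. All 4 that rose more than 2-fold are NuA4 genes: *YNG2* (639 ± 14.1 to 1918 ± 323 normalized counts, log2 1.59 ± 0.10, adjusted p = 2.32e-08), *EAF7* (log2 1.50 ± 0.13, adjusted p = 4.33e-07), *ESA1* (log2 1.18 ± 0.085, adjusted p = 7.05e-08) and *EAF3* (log2 1.14 ± 0.066, adjusted p = 1.02e-08). *EAF6* rose close to 2-fold (log2 1.00 ± 0.11, adjusted p = 3.17e-06). The rise of *EAF5* was 0.37 ± 0.12 on the log2 scale (adjusted p = 0.0153), or 0.205 without replicate 2 of aged *TRA1* cells. In all, the 4 Piccolo and the 3 TINTIN genes rose. *ACT1* fell from 56972, 58395 and 54688 to 18096, 10518 and 18999 (log2 -1.83 ± 0.18, adjusted p = 1.48e-06), a decrease of 3.56-fold and the largest of the members.

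Among the 18 SAGA genes other than *TRA1*, 5 rose and 5 fell with age in *TRA1* cells and none changed more than 2-fold. Of all genes, 41.5% rose and 39.8% fell, with 20.1% and 19.8% beyond 2-fold. *SGF73* rose 1.82-fold (log2 0.86 ± 0.056, adjusted p = 2.70e-08) and *NGG1* 1.61-fold (log2 0.69 ± 0.058, adjusted p = 3.30e-07). *HFI1* fell by 0.87 on the log2 scale (adjusted p = 1.76e-06) and *ADA2* by 0.60 (adjusted p = 4.86e-05). *SGF11*, *UBP8* and *SUS1* did not pass in *TRA1* cells, with log2 values of 0.10, 0.19 and 0.06. Single libraries of aged *TRA1* cells decided the value of *UBP8*, which was 0.323 (adjusted p = 0.0341) without replicate 1 and -0.015 (adjusted p = 0.861) without replicate 2, and *SUS1* lay at -0.038 without replicate 2. *SPT8* passed without replicate 1 (log2 0.31, adjusted p = 0.0412). *TAF6* did not pass (log2 -0.18 ± 0.092, adjusted p = 0.0913) but fell without replicate 2 of aged *TRA1* cells (log2 -0.293, adjusted p = 0.000163). The scaling bears on the smaller decreases. With library totals, which raised the median of all genes by 0.176, the calls of *TAF5*, *TAF9*, *SGF29* and *ARP4* were lost as well as that of *TRA1*, and upper quartile factors lost those of *TAF5* and *SGF29*. That of *TAF5* was also lost without replicate 3 at day 0 or replicate 1 or 3 of aged *TRA1* cells (adjusted p = 0.0666 to 0.0778). The call of *TAF10* (log2 0.28 ± 0.12, adjusted p = 0.0427) was lost when any 1 of 10 libraries was left out, and its value dropped to 0.095 (adjusted p = 0.0675) without replicate 2 of aged *TRA1* cells.

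In *tra1Q3* cells, 14 members rose with age and 11 fell (45.2% and 35.5%, against 40.9% and 42.1% of all genes), with a median of -0.035 against -0.014. The 5 that rose more than 2-fold (22.7% of all genes did) were *YNG2* (668, 643 and 696 to 2949, 2814 and 3076; log2 2.14 ± 0.10, adjusted p = 1.40e-09), *ESA1* (log2 1.70 ± 0.085, adjusted p = 2.21e-09), *ADA2* (log2 1.46 ± 0.086, adjusted p = 9.39e-09), *SWC4* (log2 1.14 ± 0.067, adjusted p = 8.70e-09) and *EAF7* (log2 1.14 ± 0.13, adjusted p = 4.54e-06). The 4 that fell more than 2-fold (23.4% of all genes did) were *HFI1*, *EAF1*, *ACT1* and *SUS1*. *HFI1* fell from 1276, 1124 and 1161 to 260.0, 269.6 and 222, that is 4.72-fold (log2 -2.24 ± 0.095, adjusted p = 4.78e-10). *EAF1* fell 2.77-fold (log2 -1.47 ± 0.069, adjusted p = 1.14e-09), *ACT1* 2.52-fold (log2 -1.33 ± 0.18, adjusted p = 2.11e-05) and *SUS1* 2.12-fold (log2 -1.08 ± 0.13, adjusted p = 5.81e-06), the last by less than 2-fold under upper quartile factors (log2 -0.97). *UBP8* and *SGF11* also fell (log2 -0.77 ± 0.14 and -0.49 ± 0.078), *GCN5* fell (log2 -0.70 ± 0.065), and *SGF73* did not pass (log2 -0.12 ± 0.056, adjusted p = 0.0596). Without replicate 2 of aged *TRA1* cells, which enters the shared estimate of the spread, *SGF73* (log2 -0.098, adjusted p = 0.0342) and *TAF10* (log2 -0.242, adjusted p = 3.57e-05) were called lower and *TAF6* higher (log2 0.132, adjusted p = 0.0259). *TAF10* was also called without replicate 1 or 3 of aged *TRA1* cells (adjusted p = 0.0473 and 0.025). The small rise of *EPL1* (log2 0.21 ± 0.088, adjusted p = 0.0431) was lost with library totals and when any 1 of 7 libraries was left out (adjusted p = 0.057 to 0.112).

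The age–genotype interaction score tests whether these changes differ, as the log2 change with age in *TRA1* cells minus that in *tra1Q3* cells. It uses the same 12 libraries as the comparisons above, so that its values restate them and are no separate evidence. Scores were positive for 15 members and negative for 10 (48.4% and 32.3%, against 39% and 29.7% of 6247 genes), and the median was 0.366 against 0.147. Scores above 1 were found for 4 members and below -1 for 3, beside 17.9% and 13.6% of all genes. A positive score, a smaller rise or a larger fall with age in *tra1Q3* cells, was found for *EAF1* (1.48 ± 0.096, adjusted p = 1.08e-07), *HFI1* (1.37 ± 0.13, adjusted p = 2.08e-06), *SUS1* (1.15 ± 0.18, adjusted p = 1.15e-04) and *EAF6* (1.04 ± 0.15, adjusted p = 8.53e-05). The score of *EAF6* was below 1 when replicate 3 of either genotype at day 0, replicate 2 of aged *TRA1* or replicate 3 of aged *tra1Q3* cells was left out (0.93 to 0.99). The other deubiquitinating module genes scored 0.98 ± 0.079 (*SGF73*), 0.96 ± 0.20 (*UBP8*) and 0.60 ± 0.11 (*SGF11*), so that all 4 were positive. *SGF73* and *UBP8* exceeded 1 with library totals (1.099 and 1.085) and without replicate 1 or 3 of aged *TRA1* cells. Without replicate 2 of aged *TRA1* cells, *UBP8* scored 0.732. Among the rest, *GCN5* (0.61 ± 0.091), *EAF3* (0.69 ± 0.093) and *TAF10* (0.55 ± 0.17, or 0.337 without replicate 2 of aged *TRA1* cells) were also positive. So were *SPT3* (0.50 ± 0.084), *TAF12* (0.45 ± 0.099), *YAF9* (0.45 ± 0.11), *NGG1* (0.40 ± 0.083) and *SPT7* (0.39 ± 0.078).

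Negative scores below -1 were found for *ADA2* (-2.05 ± 0.12, adjusted p = 6.25e-08), *TRA1* (-1.11 ± 0.10, adjusted p = 1.50e-06) and *ARP4* (-1.07 ± 0.10, adjusted p = 2.83e-06). For all 3, the change with age passed the test in opposite directions in the genotypes, though the decrease of *TRA1* in *TRA1* cells was small and lost as described. *ADA2* fell in *TRA1* cells and rose in *tra1Q3* cells, and *ARP4* fell by 0.36 and rose by 0.71 on the log2 scale. Under library totals the decrease of *ARP4* in *TRA1* cells was not called (adjusted p = 0.151), and the scores of *TRA1* and *ARP4* were -0.995 and -0.952. *SGF29* also fell in *TRA1* cells and rose in *tra1Q3* cells (score -0.59 ± 0.12), although its decrease was lost with library totals (adjusted p = 0.375). *SWC4* (-0.80 ± 0.094), *YNG2* (-0.55 ± 0.14) and *ESA1* (-0.51 ± 0.12) rose in both genotypes and by more in *tra1Q3* cells. The scores of *YNG2* and *ESA1* were not called with library totals (adjusted p = 0.0679 and 0.0583). Negative scores were also called for *SPT20* (-0.21 ± 0.088, adjusted p = 0.0478), *SPT8* (-0.51 ± 0.19, adjusted p = 0.0304) and *EAF5* (-0.43 ± 0.17, adjusted p = 0.0421), and were lost with library totals and when any 1 of 9, 8 and 11 libraries was left out, respectively. Leaving out replicate 2 of aged *TRA1* cells gave -0.244, -0.74 and -0.62 for these 3 genes (adjusted p = 0.0152, 4.77e-07 and 0.000196). *ACT1* fell in both, and the difference between the falls did not pass (score -0.50 ± 0.25, adjusted p = 0.0964). It passed without replicate 2 of aged *TRA1* cells (-0.285, adjusted p = 0.0106) and without replicate 3 (-0.648, adjusted p = 0.0329). The score of *TAF6* (-0.28 ± 0.13, adjusted p = 0.0696) passed without replicate 2 (-0.425, adjusted p = 9.95e-05), and those of *EPL1* and *EAF7* passed without replicate 3 of aged *TRA1* cells (0.314 and 0.481, adjusted p = 0.0307 and 0.0204).

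**Figure D4:**
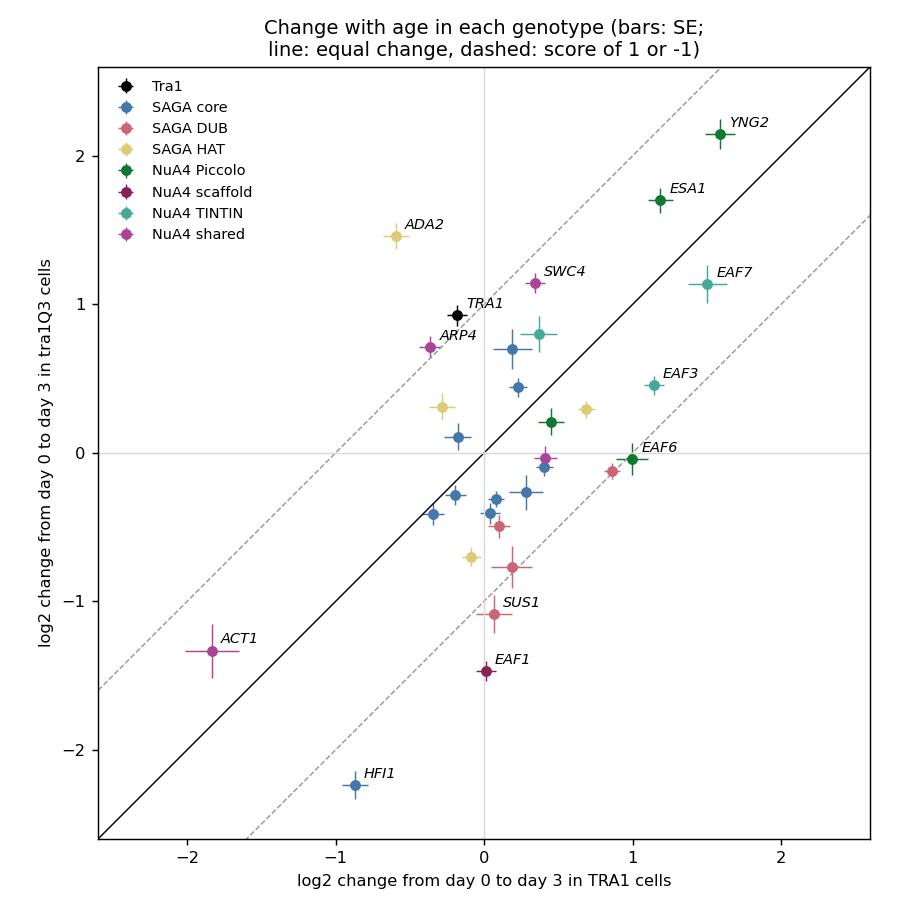
Change with age (log2, day 3 over day 0) of *TRA1* cells on the horizontal and of *tra1Q3* cells on the vertical axis for the 31 members, coloured by module, with standard errors as bars. On the solid line the genotypes changed alike, and the dashed lines mark scores of 1 and -1: *ADA2*, *TRA1* and *ARP4* lie above the upper dashed line, and *EAF1*, *HFI1*, *SUS1* and *EAF6* lie below the lower one.

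Partner complexes that share subunits or substrates with SAGA and NuA4 were counted for comparison, over 42 genes. The genes belong to TFIID, SWR1, TREX-2, the ADA and SLIK complexes, other histone acetyltransferase complexes and the factors of H2B ubiquitination. At day 0, 22 of these were higher in *tra1Q3* cells and 10 lower, and none by more than 2-fold. Of these calls, 7 increases and 2 decreases were lost under at least 1 other scaling. Among all genes at day 0, 35% were higher and 33.7% lower, with 3.31% and 2.76% beyond 2-fold. At day 3, 20 of the 42 were higher and 12 lower, 7 and 5 of them by more than 2-fold. Of these increases at day 3, 8 were lost under at least 1 other scaling, none of them over 2-fold. Among all genes at day 3, 35.1% were higher and 36.4% lower, with 16.4% and 15.6% beyond 2-fold. Among the TFIID genes outside SAGA, *SPT15*, the TATA-binding protein, was higher (1609.8 ± 414 against 8686 ± 108 normalized counts; log2 2.54 ± 0.18, adjusted p = 2.04e-05), as was *TAF2* (log2 1.06 ± 0.084). The ubiquitin which Ubp8 removes is placed by the conjugating enzyme Rad6 and the ligase Bre1, with Lge1 as a cofactor. *RAD6* (log2 2.08 ± 0.11, adjusted p = 6.69e-06) and *LGE1* (log2 1.61 ± 0.12) were higher, *BRE1* was higher by less (log2 0.28 ± 0.072, adjusted p = 0.00913) and not called under another scaling (log2 -0.011, adjusted p = 0.923), and the other H2B ubiquitin protease, *UBP10*, was lower (log2 -1.13 ± 0.12, adjusted p = 1.30e-04). Further genes over 2-fold were *BDF1* (log2 1.56 ± 0.093) and *RVB1* (log2 -1.04 ± 0.13) of SWR1, *THP1* of TREX-2 (log2 1.23 ± 0.082) and *RTG2* of SLIK (log2 1.59 ± 0.091). Of the genes of other histone acetyltransferase complexes, *SAS3* (log2 -1.78 ± 0.13), *HAT1* (log2 -1.34 ± 0.16) and *HIF1* (log2 -1.52 ± 0.096) were lower.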

How the data were processed

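RNA from 12 libraries of *TRA1* and *tra1Q3* cells at day 0 and day 3 was enriched with poly dT for paired-end sequencing. Trimming by the authors was followed by alignment to build R64 with STAR 2.5.4b, and uniquely mapped reads on coding sequences were counted with featureCounts 1.6.0 (versions from the submitters' processing notes). The deposited table gives these raw counts by gene without normalization, and its header line shows no strand setting. Counts of pairs and of single reads that lost their mate (12.5% to 18.1% of the sum) were added per library. An entry without a gene name (0.0358% to 0.196% of the counts) was left out.

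The test was the quasi-likelihood test of edgeR 4.0.16 under R 4.3.3 (TMM factors, glmQLFit, glmQLFTest), with a minimum of 10 counts in 3 libraries and Benjamini-Hochberg adjustment over all genes tested. The genotypes were compared within a day, and changes with age and the interaction score in 1 fit of all groups. This test returns no standard error, so each SE is the absolute log2 value divided by the square root of its F statistic. The members, modules and related lists were chosen with earlier results of these data known, and no list test was run. Members named with full statistics are *TRA1*, every called member beyond 2-fold and, where these are fewer than 6, the next largest called ones. Other members were named with the values of their module.

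The fits were repeated with DESeq2 1.42.0, with scaling by relative log expression, by library totals or by upper quartiles, with no low-count filter, with read pairs alone, at an adjusted p of 0.01, with a replicate block, with another choice of libraries in the fit, and without each library in turn. Leaving out replicates 2 and 3 of *tra1Q3* cells at day 0 together was added after seeing the data. The scripts were tested on simulated data with 200 genes changed 3-fold, of which 200 were recovered in the day 3 comparison (6194 genes, 7 false calls). With 1.5-fold changes, 105 of 200 were recovered at day 3, 87 at day 0, 105 and 127 for aging in *TRA1* and *tra1Q3* cells, and 23 for the interaction. The simulation gave every gene the same dispersion, equal means in all groups apart from the changed genes, and no outlying library. Its recoveries and false calls therefore check the scripts and do not measure sensitivity or false calls in the real libraries. Promoter windows and codons were read from the R64 reference genome of RefSeq, whose positions matched the table for all 31 members. Tables and figures used Python 3.11, numpy 2.4.6, pandas 2.3.3, Biopython 1.88 and matplotlib 3.10.9.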

Additional observations from a re-analysis of the deposited data

Results flagged for a closer look

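The change with age differed between the genotypes by more than 2-fold, with an adjusted p of 0.05 or less in edgeR's quasi-likelihood test of the interaction, for 7 of the 31 subunits. By the same rule, 17.9% of 6247 genes had a score above 1 and 13.6% a score below -1. The scores, as the change in *TRA1* minus that in *tra1Q3* cells on the log2 scale, were -2.05 for *ADA2*, -1.11 for *TRA1*, -1.07 for *ARP4*, 1.48 for *EAF1*, 1.37 for *HFI1*, 1.15 for *SUS1* and 1.04 for *EAF6*. *ADA2*, *ARP4* and, by a small decrease, *TRA1* fell with age in *TRA1* cells and rose in *tra1Q3* cells. *HFI1* fell in both genotypes. *EAF1* and *SUS1* fell in *tra1Q3* cells and did not pass the test in *TRA1* cells, and *EAF6* rose in *TRA1* cells and did not pass in *tra1Q3* cells. With 3 libraries per group, no test for a single outlying library was made.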

How the results depend on the processing

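The 36 named log2 values kept their direction in every alternative run. The call was lost 10 times, each time for the decrease of *TRA1* with age in *TRA1* cells, whose values ran from -0.199 to -0.006. Counts of members stayed within 1.5 times the reported count in 367 cases and moved further in 17. Library totals moved the day 3 count of higher members from 12 to 7, of members over 2-fold lower from 2 to 6 and of *EPL1* over 2-fold at day 0 from 1 to 0. They also moved the members that fell with age in *TRA1* cells from 8 to 3, the negative scores from 10 to 5 and those below -1 from 3 to 1. Upper quartile factors gave 2 members over 2-fold higher at day 0 and 5 that fell with age in *TRA1* cells, as did an adjusted p of 0.01 (5). One fit of all libraries gave 3 lower members at day 0 in place of 5. Leaving out both replicates 2 and 3 of *tra1Q3* cells at day 0, added after seeing the data, gave 2 members over 2-fold higher at day 0. With 1 library left out in turn, members over 2-fold at day 3 numbered 3 to 5 (higher) and 0 to 3 (lower), and the extremes of 5 and 0 came without replicate 2 of aged *TRA1* cells.

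Libraries with the same replicate number did not deviate together (correlations from -0.114 to 0.0042). A shared culture need not show in such correlations, so they cannot decide whether the numbers mark pairs. The main fits used no replicate block. With the replicate block, 7 members were lower at day 3 in place of 11, 1 of them over 2-fold in place of 2, and the decrease of *TRA1* with age in *TRA1* cells had an adjusted p of 0.161.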
